A study of Rattus norvegicus with 12 samples.

Results

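The 12 libraries of this study fell into 2 sets of 6 whose macrophage genes stood far apart, and the data below compare set B with set A. Set B holds the samples numbered 11 and 12 (hAEC), 15 and 16 (hAMSC) and 19 and 20 (vehicle), and set A holds 3 and 4 (hAEC), 7 and 8 (hAMSC) and 17 and 18 (vehicle). Together they are all 12 libraries of the series, with 2 libraries of each treatment in each set. The labels do not name the sets: they were chosen by the expression values themselves, in earlier work on these libraries. A difference between the sets is therefore a description of how these libraries were divided, and no p-value is given for it. Whether the size of that difference varied between the treatments was not used in choosing the sets, and it was tested.

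The cells came from rats with cirrhosis caused by long inhalation of CCl4 (carbon tetrachloride), a hepatotoxin, and were isolated by centrifugation on a gradient. Their label is hepatic stellate cell (HSC), the pericyte of the liver sinusoid that becomes a myofibroblast in fibrosis. The co-culture lasted 24 h and used a Transwell insert, a porous cup that lets soluble products through but keeps cells apart. The insert held 15000 human amniotic epithelial cells (hAEC) or 15000 human amniotic mesenchymal stromal cells (hAMSC), and the label of the third group is Veh, read here as vehicle. The labels give no rat, isolation, culture or sequencing date for a library, so the sets cannot be told apart from any of these. Nor do they say that libraries of 1 group are from different animals, so p-values below rest on the spread of these 12 libraries, part of which may be technical.

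Macrophages are the phagocytes of the liver. Resident Kupffer cells line the sinusoids and carry receptors that clear particles, lipoproteins and iron, while monocytes that enter an injured liver become macrophages of a changing profile. On sensing microbial products or tissue damage through Toll-like receptors, macrophages activate NF-kB and AP-1, transcription factors that switch on cytokines, chemokines and proteases, whereas lipid-sensing nuclear receptors accompany a clearing profile rich in lysosomes, complement C1q and apolipoprotein E.

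The label was first set against defining markers. Macrophage transcripts were abundant in both sets: Cd68, a lysosomal glycoprotein of macrophages, was at 1525 to 1656 CPM (counts scaled to a common library total) in set A and 1638 to 1681 CPM in set B, and Clec4f, a lectin of rodent Kupffer cells, at 885 to 1029 CPM and 735 to 904 CPM. Defining stellate cell markers were low in both, while Reln and Col4a1, also on that list, were higher in set A and are described below. Acta2, an actin of smooth muscle and myofibroblasts, was at 0.802 to 2.46 CPM in set A and 1.42 to 3.00005 CPM in set B, and Col1a1, a chain of type I collagen, at 0.659 to 2.02 CPM and 1.69 to 5.21 CPM. The transcripts of both sets go against the label, and the comparison is called here one of 2 sets of libraries rich in macrophage transcripts. In bulk samples, fewer cells of a type and less RNA per cell cannot be told apart. Deposited totals ran from 27382724 to 34922211 counts in set A and from 27553187 to 31821341 in set B, and genes with a count numbered 16320 to 16721 and 16167 to 16642. The 10 genes with the most counts held 8.77% to 9.14% of counts in set A and 11.2% to 11.8% in set B, and mitochondrial genes 1.73% to 2.15% and 1.98% to 2.61%. The Y-linked genes Eif2s3y (52.3 to 58.9 CPM in set A, 48.9 to 60.6 CPM in set B) and Kdm5d (42.1 to 45.9 and 51.5 to 59.1 CPM) were present in every library.

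Of 13539 genes with enough counts, 1164 were higher in set B and 1180 were higher in set A. Here and below, a gene is called higher when its fitted difference was at least 1 on the log2 scale and every library of 1 set lay above every library of the other. These calls are 8.6% and 8.72% of the genes tested, and they are the background for each gene group below. The median log2 difference over all tested genes was -0.00, and 7996 genes (59.1%) lay within 0.5 log2 units of no difference. Among the called genes the median was 1.70 for set B and -1.69 for set A, and 89 and 59 genes differed at least 16-fold. Genes called higher in set B held 10.5% to 11.3% of all counts in set B against 3.10% to 3.24% in set A. Genes called higher in set A held 10.4% to 10.8% of counts there against 3.03% to 3.34% in set B. The threshold fell in a continuous range of log2 differences. On the side of set B, Fam78a (1.001) and Nprl2 (1.002) lay just inside it and Sc5d (0.99997) and Arl11 (0.998) just outside. On the side of set A, Csf1 (-1.002) and Hivep1 (-1.003) lay just inside and Bop1 (-0.9993) and Rhoc (-0.999) just outside.

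**Figure D1:**
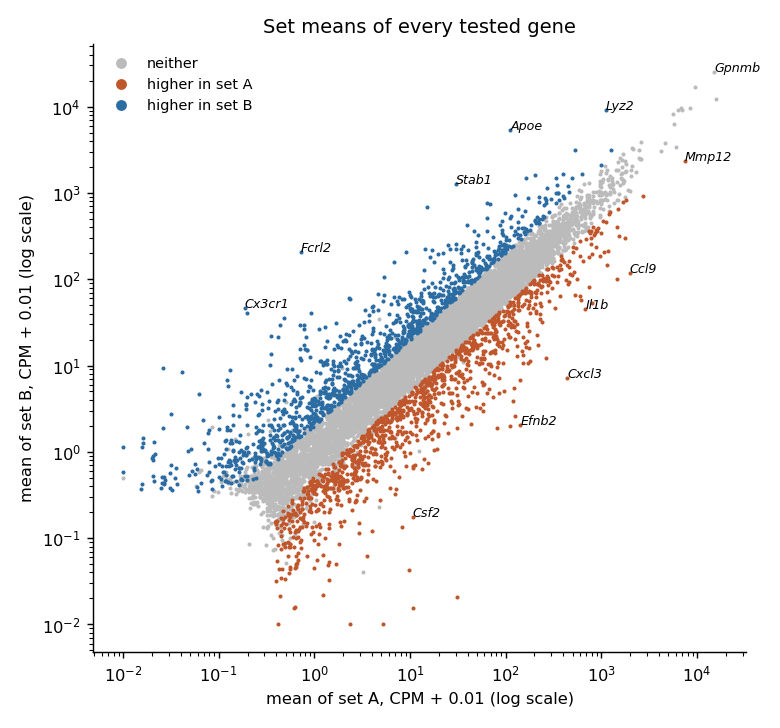
Mean CPM of set B (vertical, log scale) against that of set A (horizontal, log scale) for the 13539 tested genes, each mean over 6 libraries with 0.01 added. Blue points are the 1164 genes called higher in set B, orange points the 1180 called higher in set A, and grey points all others; labelled genes are described in the text.

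The 8 genes that marked the sets in the earlier work differed between 5.31-fold (Cd14) and 61.7-fold (Cxcl3). Apoe, the apolipoprotein through which macrophages export cholesterol, ran from 94.4 to 125 CPM in set A (median 112) and from 4444 to 6049.5 CPM in set B (median 5415). Stab1, a scavenger receptor of sinusoidal cells and of macrophages, was at 26.9 to 35.7 CPM (median 30.1) in set A and 1102 to 1468 CPM (median 1261) in set B. All 6 libraries of set B were high for both genes and the sets did not overlap, with fitted log2 differences of 5.58 ± 0.06 (SE) and 5.39 ± 0.06. Adgre1, the F4/80 antigen, was at 56.6 to 76.6 CPM (median 62.6) and 744 to 794 CPM (median 777). Lysozyme Lyz2 was at 984 to 1195 CPM (median 1125) and 8401 to 9941 CPM (median 9051). Both were lower in every library of set A (log2 differences 3.59 ± 0.05 and 3.03 ± 0.04).

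The other 4 marker genes had the opposite order. Cxcl3, a chemokine that draws neutrophils, was at 395 to 483 CPM (median 434) in set A and only 5.22 to 9.17 CPM (median 7.21) in set B, a log2 difference of -5.95 ± 0.13 (SE). Ccl9, a chemokine of myeloid cells, was at 1833 to 2118 CPM (median 1971) and 111 to 119 CPM (median 118), a log2 difference of -4.08 ± 0.04. Il1b, the inflammatory cytokine interleukin-1 beta, was at 635 to 723 CPM (median 685) and 39.97 to 50.5 CPM (median 45.9), a log2 difference of -3.902 ± 0.05. In these 3 genes each library of set A exceeded the highest library of set B several times over. Cd14, the co-receptor for endotoxin, was at 932 to 1079.9 CPM (median 948) and 167 to 217 CPM (median 179), with a log2 difference of -2.41 ± 0.05. The ranges of the sets were far apart for Cd14 as well.

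**Figure D2:**
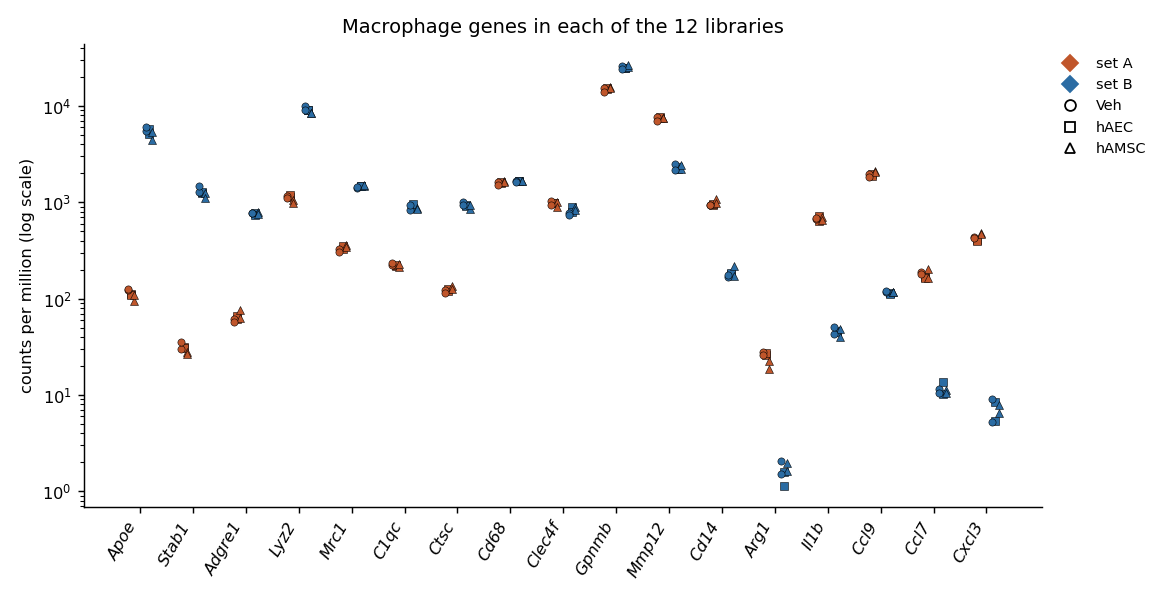
CPM (log scale) of 17 macrophage genes in each of the 12 libraries; orange is set A, blue is set B, and the symbol gives the treatment. The 6 libraries of each set cluster tightly: Apoe, Stab1, Adgre1 and Lyz2 are high in set B and Il1b, Ccl9 and Cxcl3 are high in set A, while Cd68 and Clec4f are at similar levels in both.

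Genes of macrophage identity differed in part. Of the 16 tested genes that most macrophages express, 3 were higher in set B and 2 in set A, with a median log2 difference of 0.24. These calls include Lyz2 and Cd14, which marked the sets. Lists below likewise count the marker genes Stab1, Adgre1, Apoe, Il1b, Cxcl3 and Ccl9 where they hold them. Besides Lyz2, the calcium-binding protein Aif1 was higher in set B (129 to 146 CPM in set A, 369.7 to 449.6 CPM in set B, log2 difference 1.55 ± 0.04). Of 20 genes linked to resident liver macrophages, 9 were higher in set B and 3 in set A (median 0.88). Mrc1, the mannose receptor, was at 303 to 358 CPM (median 338) in set A and 1413 to 1505 CPM (median 1484) in set B. The sets did not overlap for it, and its log2 difference was 2.13 ± 0.03. Hmox1, which breaks down haem, was at 2183 to 2738 CPM in set A and 2396 to 2639 CPM in set B (log2 difference 0.03 ± 0.04), and Id1, an inhibitor of helix-loop-helix factors, was higher in set A (27.3 to 31.6 and 4.97 to 8.32 CPM). The receptor Marco, also on the list, was at 98.8 to 115 CPM in set A and 34.0 to 48.1 CPM in set B. Siglec1 had the same order, at 146 to 176 and 62.9 to 83.5 CPM, and Timd4 stayed under 1 CPM in every library. The list thus held members of either direction, and Clec4f was not called (log2 difference -0.24 ± 0.05).

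Genes of monocyte-derived cells were divided in the same way. Of 17 in the files 13 were tested, 2 were higher in set B and 4 in set A (median -0.16). Cx3cr1, the fractalkine receptor, was at 0.0323 to 0.289 CPM in set A and 27.5 to 58.8 CPM in set B (log2 difference 7.97 ± 0.19), and the matrix protein gene Tgfbi at 13.4 to 17.4 and 155 to 205 CPM (3.48 ± 0.06). S100a6, a calcium-binding protein, was at 86.4 to 96.6 CPM in set A and 14.8 to 23.5 CPM in set B, and the proteoglycan gene Vcan at 59.5 to 92.96 and 12.1 to 17.8 CPM, so these genes had the reverse order. Among 14 genes of scar-associated macrophages, the lipid-handling phagocytes of fibrotic liver, 1 was higher in set B and 3 in set A (median -0.32). The one higher in set B was the lipid receptor Trem2 (84.8 to 108 CPM in set A, 268 to 307 CPM in set B, log2 difference 1.53 ± 0.04). Mmp12, the macrophage elastase, was at 6976 to 7749 CPM (median 7572) in set A and 2193 to 2486 CPM (median 2299) in set B, and the membrane protease Mmp14 and the collagen-cleaving cathepsin Ctsk were also higher in set A (log2 differences -1.69 ± 0.04, -1.29 ± 0.04 and -1.28 ± 0.05). Gpnmb, a glycoprotein of lysosome-rich phagocytes, had a mean of 15128 CPM in set A and 25396 CPM in set B, the largest difference in CPM of any gene towards set B, yet stayed below the 1 log2 unit needed for a call (0.75 ± 0.03).

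Lysosomal and lipid genes leaned towards set B. Of 37 lysosomal genes, 9 were higher in set B and 1 in set A, and 31 had a positive difference (median 0.54). Ctsc, the protease that activates granule enzymes, was at 114 to 135 CPM (median 124) in set A and 862 to 1013 CPM (median 941) in set B. The sets were well separated, by 2.92 ± 0.05 log2 units. Hexa, a subunit of hexosaminidase, was higher in set B by 2.19 ± 0.04 log2 units, and the glucuronidase Gusb by 1.404 ± 0.03. Psap, precursor of the saposins, rested below the threshold at 0.83 ± 0.03, though its mean of 16926 CPM in set B against 9504 CPM in set A was among the largest differences in level. The summed level of the list was 43328 to 46168 CPM in set A and 65969 to 69361 CPM in set B.

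Of 22 genes of lipid efflux, 6 were higher in set B and 1 in set A (median 0.54). The difference was positive for 14 of them and negative for 8. Scarb1, the receptor for high-density lipoprotein, was at 60.7 to 69.8 CPM (median 62.5) in set A and 475 to 568 CPM (median 513) in set B (log2 difference 3.02 ± 0.05). The lysosomal cholesterol transporter Npc1 and the lipid-sensing receptor Pparg were also higher in set B (1.19 ± 0.03 and 1.33 ± 0.07). Nr1h3, another lipid-sensing receptor, had the reverse order, at 172 to 189 CPM in set A and 100 to 123 CPM in set B. So did Cd36, at 661.5 to 818 and 333 to 417 CPM. Cholesterol synthesis genes showed a small shift towards set B: 5 of 23 were higher in set B, 0 in set A, and 20 had a positive difference (median 0.73). Stard4, Dhcr7 and Cyp51 were higher in set B by 1.44, 1.28 and 1.14 log2 units.

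Genes of clearance were divided by receptor. Among 24 scavenger and clearance receptors and their bridging ligands, 7 were higher in set B and 5 in set A (median 0.27). Gas6, which bridges dying cells to the receptors AXL and MERTK, was at 35.7 to 43.3 CPM (median 39.2) in set A and 404 to 439 CPM (median 425) in set B (log2 difference 3.43 ± 0.04). The scavenger Colec12 was at 5.67 to 7.003 and 40.2 to 56.8 CPM (3.03 ± 0.07). Of 20 complement genes, 6 were higher in set B and 3 in set A (median 0.29). C1qa and C1qc, chains of the C1q recognition molecule, were higher in set B (1.41 ± 0.03 and 1.99 ± 0.04), as were C3, the central component (13.2 to 15.4 CPM in set A, 194 to 246 CPM in set B) and its receptor C3ar1 (2.57 ± 0.04).

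Chemokine genes had the lowest median among the lists with at least 9 tested members. Of 25 tested, 19 were higher in set A and 3 in set B, with a median log2 difference of -2.27, against 8.72%, 8.6% and -0.00 for all genes. Their summed level was 5583 to 6490.2 CPM in set A and 1435 to 1470.5 CPM in set B, so the sets did not overlap. Ccl12, a monocyte attractant of rodents, was at 66.5 to 93.4 CPM (median 81.9) in set A and 1.09 to 2.46 CPM (median 1.98) in set B (log2 difference -5.43 ± 0.15). Ccl7, another monocyte attractant, was at 164 to 203 CPM (median 173) and 10.3 to 13.7 CPM (median 10.9), a difference of -3.97 ± 0.09. Ccl6, a relative of Ccl9, was at 1274 to 1746 and 80.4 to 116 CPM (-3.84 ± 0.06). All 6 libraries of set A were high for these 3 genes. The platelet factor Pf4, which macrophages also make, was 1 of the 3 chemokine genes higher in set B (121 to 149 CPM in set A, 630.3 to 678 CPM in set B, 2.28 ± 0.04).

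Of 19 inflammatory cytokine genes 9 were higher in set A and 3 in set B (median -1.002). The growth factors of granulocytes and macrophages stood far apart: Csf2 was at 7.82 to 15.3 CPM in set A and 0.0365 to 0.261 CPM in set B (log2 difference -5.94 ± 0.22), and Csf3 at 14.4 to 24.6 and 0.807 to 1.52 CPM (-4.14 ± 0.16). Il1a, interleukin-1 alpha, was at 116 to 136 CPM (median 120.4) in set A and 4.37 to 6.49 CPM (median 5.301) in set B (-4.49 ± 0.07). Il1rn, which blocks the receptor of both interleukin-1 forms, was higher in the same set as its targets, at 1396 to 1673 CPM (median 1548) and 283 to 352 CPM (median 310.1). Tnf, singled out after its values were seen, was at 16.99, 18.6, 22.5, 23.7 and 15.9 CPM in 5 libraries of set A and between 5.35 and 7.71 CPM in set B, but was listed at 0 in hAMSC 7. The sets therefore overlapped and Tnf was not called. Without that library the set difference of Tnf was -1.58 log2 units and the sets did not overlap; whether the 0 is an estimate that failed was not tested.

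**Figure D3:**
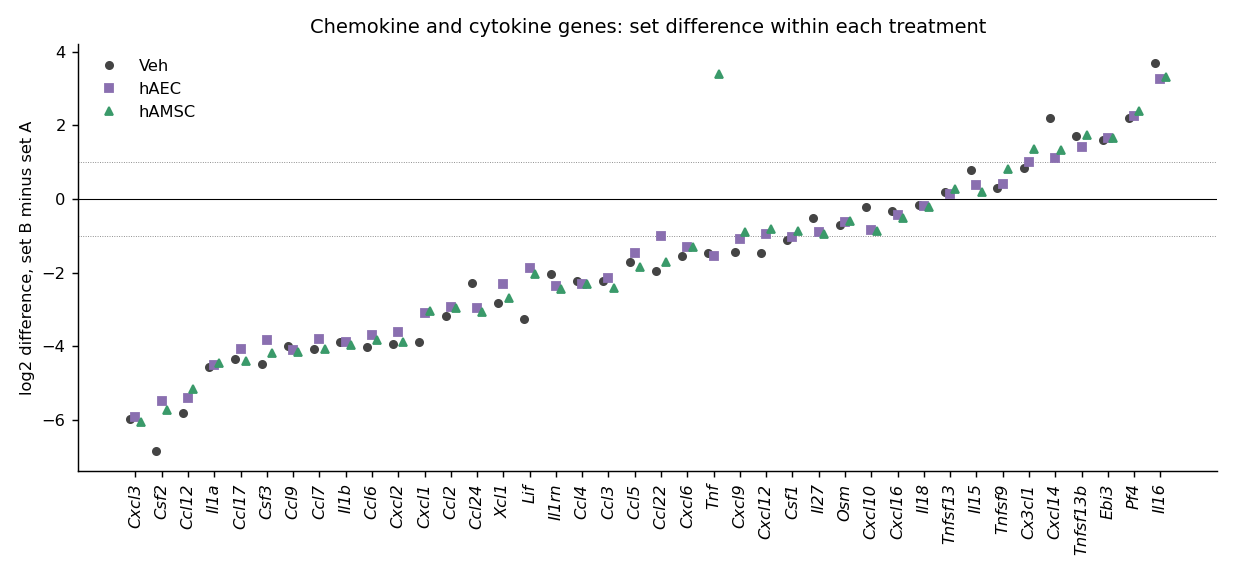
Log2 difference of set B minus set A (vertical) for chemokine and cytokine genes with a mean of at least 1 CPM, in order of the overall difference, with 1 point for each treatment from 2 libraries of each set. The points of the 3 treatments lie close together for the genes with the largest differences; the high hAMSC point of Tnf rests on the library in which that gene is listed at 0.

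The promoters of 3 genes higher in set A and of 1 higher in set B are printed because the genes lie near the ends of the range and hold a short match to a motif of NF-kB or AP-1. Each run is the 250 bases before the annotated start in RefSeq (build GRCr8), 5′ to 3′ on the strand of the gene; capitals mark a match.
Il1a (chr3:136990018-136990267, minus strand): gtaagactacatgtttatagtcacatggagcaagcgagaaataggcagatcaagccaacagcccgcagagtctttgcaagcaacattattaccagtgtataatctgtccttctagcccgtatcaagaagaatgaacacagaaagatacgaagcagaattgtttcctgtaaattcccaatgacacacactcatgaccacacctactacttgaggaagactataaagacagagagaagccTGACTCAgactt
Ccl7 (chr10:67513845-67514094, plus strand): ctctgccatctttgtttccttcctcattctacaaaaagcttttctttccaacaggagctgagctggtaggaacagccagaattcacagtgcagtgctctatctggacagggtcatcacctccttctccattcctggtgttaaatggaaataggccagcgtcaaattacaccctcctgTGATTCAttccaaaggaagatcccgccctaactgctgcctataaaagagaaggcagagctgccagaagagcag
Ccl9 (chr10:68868878-68869127, minus strand): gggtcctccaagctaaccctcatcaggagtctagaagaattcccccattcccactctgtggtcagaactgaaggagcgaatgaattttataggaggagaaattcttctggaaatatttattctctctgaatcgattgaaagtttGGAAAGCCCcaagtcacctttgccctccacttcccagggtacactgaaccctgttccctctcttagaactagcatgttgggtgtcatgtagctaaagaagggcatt
Stab1 (chr16:6367360-6367609, minus strand): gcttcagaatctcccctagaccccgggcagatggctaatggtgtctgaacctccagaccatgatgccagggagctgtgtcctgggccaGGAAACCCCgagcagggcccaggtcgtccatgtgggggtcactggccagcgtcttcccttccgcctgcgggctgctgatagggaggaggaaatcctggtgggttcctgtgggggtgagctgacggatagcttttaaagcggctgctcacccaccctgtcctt
In Il1a and Ccl7 the capitals mark the AP-1 motif TGANTCA, beginning 12 and 73 bases before the start. In Ccl9 and in Stab1 they mark the NF-kB motif GGGNTTTCC, read on the other strand, 106 and 162 bases before the start. A gene of set B thus holds the same kind of match as a gene of set A.

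Over all genes higher in set A for which RefSeq gives a promoter (781 of 1180 genes, 874 promoters of 300 bases: 250 before and 50 after the start), the AP-1 motif was in 11.2%. It was in 6.07% of 922 promoters of genes higher in set B (787 of 1164 genes) and 5.20% of 10557 promoters of tested genes, and in 7.33% of all 33469 promoters in the table. The NF-kB motif was in 2.86%, 1.41%, 1.89% and 1.56% of these groups. The PU.1 motif GGAAGTG was in 8.92%, 8.57%, 14.5% and 9.86%, the E-box CACGTG of lysosomal genes in 7.55%, 7.59%, 8.96% and 6.42%, and the interferon-stimulated element GAAANNGAA in 8.01%, 9.11%, 7.55% and 9.71%. Both strands were searched, motifs could overlap, and a match is a description of the letters in the window, not a site that was shown to be bound.

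NF-kB genes were lower in set B almost throughout. Of 24 tested, 13 were higher in set A and 0 in set B, 22 had a negative difference, and the median was -1.05. Nfkbia, the inhibitor that NF-kB itself induces, was at 344 to 381 CPM (median 352) in set A and 101 to 126 CPM (median 108) in set B (log2 difference -1.69 ± 0.04). Tnip3, which restrains NF-kB, was at 149 to 187 and 17.2 to 21.1 CPM (-3.12 ± 0.05), the mitochondrial dismutase Sod2 at 1391 to 1587 and 362 to 496 CPM (-1.87 ± 0.04), and the adhesion molecule Icam1 at 564 to 644 and 175 to 197 CPM (-1.697 ± 0.03). No library of set B reached the lowest library of set A for any of the 4. Of 26 AP-1 and early response genes, 11 were higher in set A and 2 in set B (median -0.77). Fosl1, an AP-1 subunit, was at 11.1 to 18.1 CPM in set A and 1.52 to 2.71 CPM in set B (-2.71 ± 0.10), and its partner Junb at 179 to 214 and 57.4 to 89.4 CPM (-1.52 ± 0.12). The heat shock gene Hspa1b and the phosphatase Dusp2 were also higher in set A (-2.69 ± 0.31 and -2.42 ± 0.06).

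Interferon response genes were lower in set B in part. Of 27, 11 were higher in set A and 0 in set B (median -0.79). Irf7, the factor that amplifies type I interferon, was at 462 to 527 CPM (median 485) in set A and 81.1 to 138 CPM (median 108) in set B (log2 difference -2.14 ± 0.13). The antiviral genes Rsad2, Ifit3 and Mx2 had differences of -2.49 ± 0.20, -2.13 ± 0.17 and -1.95 ± 0.27, while Ifi27 was not called (-0.71 ± 0.05). Of 26 antigen presentation genes, 2 were higher in set B and 1 in set A (median -0.26), near the share over all genes. Ciita, the master regulator of class II genes, was higher in set A (-1.14 ± 0.04), but Cd74, the class II invariant chain, had the opposite sign and was not called (0.51 ± 0.03). RT1-DMa ranged from 2.96 to 224 CPM within set A and from 1.096 to 148 CPM within set B, a spread within each set too wide for any comparison. Cd1d1, which presents lipids, was higher in set B (1.35 ± 0.06).

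Transcription factors of myeloid cells differed in both directions. Of 42 tested, 7 were higher in set B and 10 in set A, with a median of -0.08. Egr2, an early growth response factor, was at 197 to 217 CPM (median 205) in set A and 37.4 to 46.2 CPM (median 40.1) in set B (log2 difference -2.33 ± 0.05), whereas its relative Egr3 had the reverse order at a low level (1.26 to 2.41 and 5.32 to 11.4 CPM, 2.28 ± 0.18). Batf3, a factor of dendritic cells, was higher in set A (-2.66 ± 0.13), and Zeb2 was not called (0.22 ± 0.03).

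Receptors for microbial products showed no common direction. Of 23 Toll-like receptors and partners, 7 were higher in set B and 6, Cd14 among them, in set A (median 0.32). Tlr5, the receptor for flagellin, was at 6.46 to 7.74 CPM (median 6.57) in set A and 134 to 181 CPM (median 156) in set B (log2 difference 4.51 ± 0.07). Tlr9, which senses microbial DNA, and Ly86, a partner of CD180, were also higher in set B (3.04 ± 0.10 and 1.76 ± 0.06). Of 17 C-type lectins, 6 were higher in set B and 5 in set A (median -0.05). The activating lectins Clec4d and Clec4e, which sense mycobacterial glycolipids, were at 195 to 306 and 89.8 to 129 CPM in set A and 30.2 to 34.5 and 13.6 to 16.95 CPM in set B. Clec4a1 and Clec4a2, of the neighbouring Clec4a group, had the reverse order (2.25 ± 0.05 and 3.55 ± 0.13); reads of such close paralogs may be divided wrongly between them. Of 9 Fc receptor genes, 1 was higher in set B and 3 in set A. The inhibitory receptor Fcgr2b was at 1634 to 1932 CPM (median 1701) in set A and 258 to 377 CPM (median 267) in set B (-2.58 ± 0.05), the activating Fcgr3a differed by -1.595 ± 0.04, and their shared signalling chain Fcer1g was not called (0.27 ± 0.04). Fcrl2, an Fc receptor-like gene, had the largest log2 difference towards set B among genes with an established symbol and a mean of at least 10 CPM: 0.461 to 0.978 CPM in set A and 162 to 244 CPM in set B (8.17 ± 0.07).

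Chemoattractant receptors did not share the direction of the chemokines. Of 17 tested, 5 were higher in set B and 3 in set A (median -0.03). Cxcr4, the receptor of Cxcl12, was at 219 to 255 CPM in set A and 488 to 575 CPM in set B (1.15 ± 0.04). Ccr1, a receptor of several chemokines that were higher in set A, was itself higher there (42.8 to 57.3 and 11.1 to 14.04 CPM, -1.98 ± 0.06), as was Ccrl2, which binds chemerin without signalling (-2.67 ± 0.06).

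Arginine and itaconate genes were higher in set A: 7 of 15 were called there and 1 in set B (median -0.65). Arg1, arginase, was at 18.4 to 27.9 CPM (median 25.9) in set A and 1.14 to 2.05 CPM (median 1.604) in set B (log2 difference -3.904 ± 0.13). Ass1, which rebuilds arginine from citrulline, was at 82.98 to 86.9 and 6.504 to 7.95 CPM (-3.57 ± 0.05), and Acod1, which makes itaconate, at 31.2 to 45.2 and 2.79 to 4.31 CPM (-3.56 ± 0.13). The arginine transporter Slc7a2 had the same direction (-2.496 ± 0.16). Sat1, which acetylates polyamines, was the exception (1.19 ± 0.04). Genes taken as markers of opposed macrophage states, such as Arg1 and Il1b, were thus both higher in set A, while Mrc1 was higher in set B.

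Prostaglandin genes were split by enzyme. Of 18, 6 were higher in set B and 3 in set A (median 0.62). Ptges, which makes prostaglandin E2, was at 11.998 to 15.1 CPM in set A and 0.459 to 0.843 CPM in set B (-4.42 ± 0.12), while Hpgds, which makes prostaglandin D2, was at 6.79 to 10.6 and 56.3 to 62.3 CPM (2.77 ± 0.08). The leukotriene genes Alox5ap and Cysltr1 were higher in set B (2.62 ± 0.10 and 2.47 ± 0.10), and the phospholipase Pla2g7 was not called (0.61 ± 0.04).

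Glycolysis and hypoxia genes were lower in set B in 21 of 27, with 4 called higher in set A and 0 in set B (median -0.42). The lactate exporter Slc16a3 was at 80.5 to 86.9 CPM in set A and 9.46 to 12.4 CPM in set B (log2 difference -2.97 ± 0.06), and the glucose transporter Slc2a1 at 274 to 289 and 87.9 to 101 CPM (-1.56 ± 0.04). The enzymes differed less: lactate dehydrogenase Ldha was just under the threshold (-0.99 ± 0.04) and aldolase Aldoa was near 0 (-0.17 ± 0.03). Of 30 oxidative phosphorylation genes 0 were called in either direction (median 0.14); cytochrome c, Cycs, had the largest difference among them (-0.80 ± 0.07). Of 29 amino acid and unfolded protein response genes, 7 were higher in set A and 0 in set B (median -0.62). Those called included Trib3, Psat1, Slc7a5 and Ddit3 (-3.03 ± 0.06, -2.45 ± 0.07, -1.83 ± 0.04 and -1.64 ± 0.04), and the chaperone Calr was not called (0.39 ± 0.03).

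Iron and antioxidant genes were mixed. Of 21 haem and iron genes, 4 were higher in set B and 2 in set A (median 0.08). Slc40a1, ferroportin, the exporter of iron from macrophages, was at 285 to 408 CPM (median 350.3) in set A and 1107 to 1321 CPM (median 1275) in set B (log2 difference 1.86 ± 0.09). Ncoa4, which sends ferritin to lysosomes, was also higher in set B (1.51 ± 0.03), and Lcn2, which binds bacterial iron carriers, in set A (-1.798 ± 0.12). The ferritin chain Fth1 was not called (-0.39 ± 0.03). Of 21 NRF2 antioxidant genes, 4 were higher in set B, such as Gpx1 (1.42 ± 0.03), and 3 in set A, such as the cystine importer Slc7a11 (-2.22 ± 0.11).

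Matrix proteases and their inhibitors differed in both directions. Of 24 tested proteases and inhibitors, 10 were higher in set A and 4 in set B (median -0.18), and their summed level was 11005 to 11856 CPM in set A and 4797 to 5142 CPM in set B. Mmp9, gelatinase B, was at 407 to 538 CPM (median 433) in set A and 71.4 to 99.3 CPM (median 90.2) in set B (log2 difference -2.35 ± 0.06). Adamts4 and Mmp3 were higher in set A as well (-3.39 ± 0.18 and -2.91 ± 0.23). The neutrophil collagenase Mmp8 was the reverse, at 0.2697 to 0.582 CPM in set A and 24.4 to 33.9 CPM in set B (6.12 ± 0.15). Among 24 growth factor genes 4 were higher in set B and 3 in set A (median -0.03). Pdgfc, a mitogen of stellate cells, was at 0.485 to 1.04 and 12.7 to 19.3 CPM (4.31 ± 0.11), and the hepatocyte growth factor Hgf differed by 1.34 ± 0.05. Hbegf, an epidermal growth factor receptor ligand, was at 48.8 to 62.6 CPM in set A and 2.41 to 4.04 CPM in set B (-4.08 ± 0.12).

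Cell cycle genes leaned towards set B by count, where 13 of 31 were higher, against 1 in set A (median 0.72). Their summed level did not: it was 717 to 788 CPM in set A and 597 to 739 CPM in set B. The members higher in set B included the proliferation antigen Mki67 (10.0004 to 13.4 CPM in set A, 43.9 to 62.1 CPM in set B, 2.05 ± 0.09), the topoisomerase Top2a (2.52 to 4.79 and 10.9 to 16.04 CPM, 1.96 ± 0.11) and Stmn1 (1.13 ± 0.06). The one in set A was cyclin D1, Ccnd1, at 166 to 197 and 56.2 to 90.1 CPM (-1.31 ± 0.06).

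**Figure D4:**
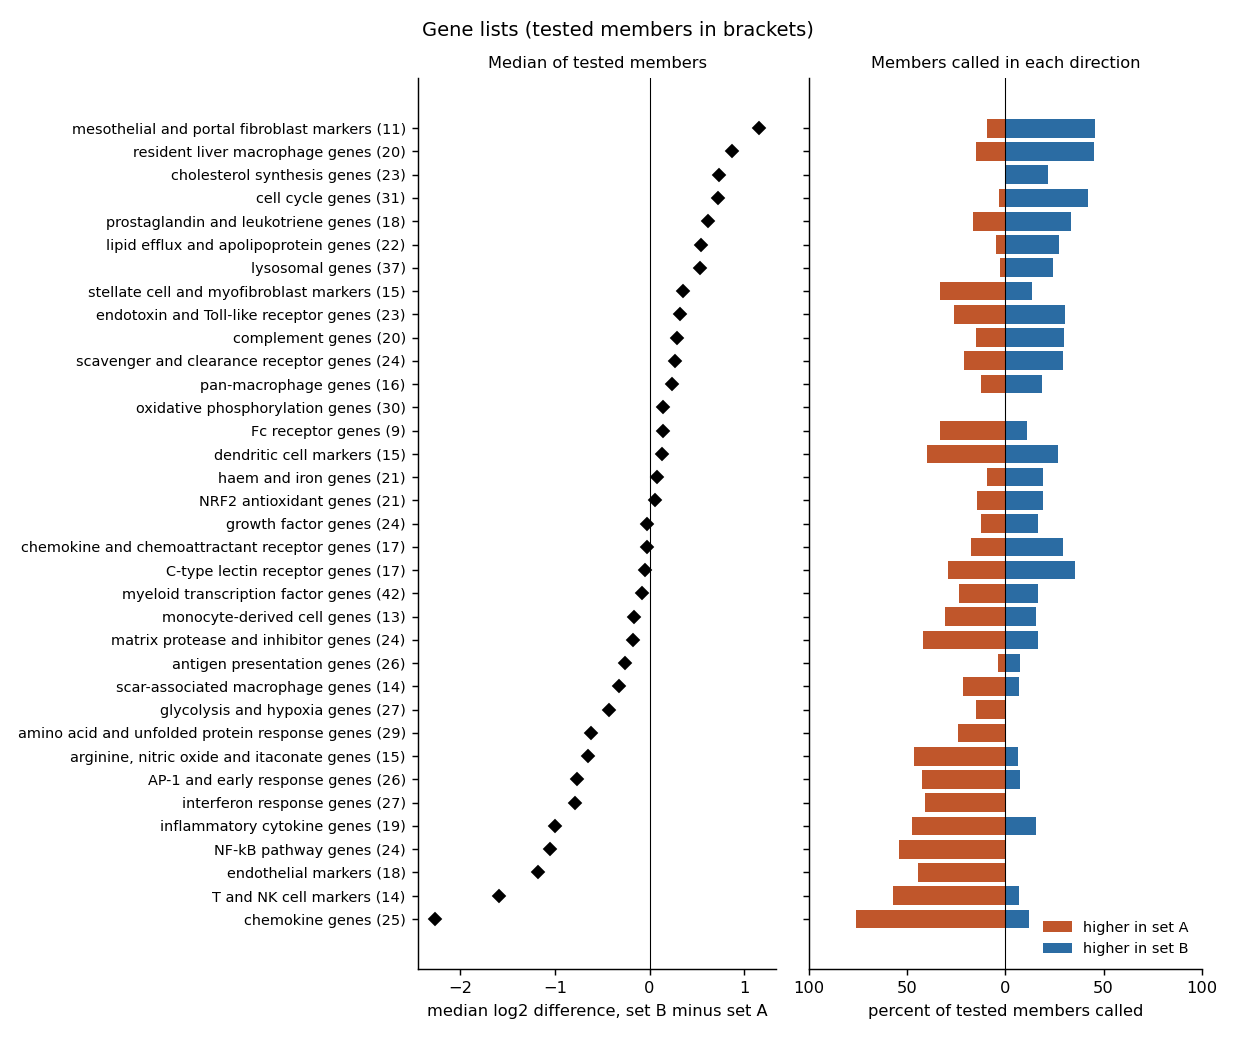
For each gene list with at least 9 tested members, the left panel gives the median log2 difference of set B minus set A and the right panel the percentage of tested members called higher in set A (orange, to the left) or in set B (blue, to the right). Chemokine genes lie at one end with a median of -2.27; over all tested genes 8.6% were called for set B and 8.72% for set A.

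Outside these lists, the 20 largest differences on each side held genes of other roles. On the side of set B were the purinergic receptor P2ry12 (0.5498 to 1.23 CPM in set A, 17.5 to 23.5 CPM in set B, log2 difference 4.705 ± 0.12) and the orphan receptor Gpr34 (0.397 to 1.09 and 18.5 to 34.2 CPM, 5.22 ± 0.21), genes best known from microglia. The membrane protein Ms4a4a was at 12.9 to 16.4 CPM (median 15.6) in set A and 616 to 768 CPM (median 695) in set B (5.54 ± 0.08), and coagulation factor F5 at 0.172 to 0.614 and 18.03 to 24.3 CPM (6.04 ± 0.15). The organic anion transporter Slco2b1 differed by 5.74 ± 0.14. On the side of set A, Efnb2, the ligand ephrin-B2, was at 135 to 158 CPM (median 138) and only 1.54 to 2.74 CPM (median 1.94) in set B (-6.13 ± 0.09). Ch25h, which makes the oxysterol 25-hydroxycholesterol, was at 104 to 131 CPM in set A and 1.35 to 2.76 CPM in set B (-5.82 ± 0.12). The basement membrane protein Nid2, the lectin Siglec10 and the signalling inhibitor Cish were also among them (-5.604 ± 0.11, -4.38 ± 0.07 and -4.01 ± 0.13). Every library of set A was above every library of set B for these 5 genes.

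Stfa2l1, a cystatin-like gene, had no count in any library of set B and 2.12 to 2.60 CPM in set A. Against a floor of 3 counts over the 6 libraries of set B it was at least 137-fold higher in set A. The provisional gene LOC102555392 likewise had no count in set B and 4.51 to 6.78 CPM in set A, which makes it at least 305-fold higher there.

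Markers of other cell types also stood apart between the sets. Of 18 endothelial markers, 8 were higher in set A and 0 in set B (median -1.18), and their summed level was 706 to 863 CPM in set A and 414 to 592 CPM in set B. Lyve1, a hyaluronan receptor of sinusoidal and lymphatic endothelium and of some macrophages, was at 83.3 to 117 CPM (median 93.9) in set A and 2.54 to 10.8 CPM (median 3.14) in set B (log2 difference -4.34 ± 0.30). The junction gene Esam, the angiopoietin receptor Tek and the factor Erg were higher in set A (-2.37 ± 0.16, -2.09 ± 0.12 and -1.99 ± 0.17), but Tie1, the partner of Tek, was not called (0.18 ± 0.04). Of 14 tested T and NK cell markers, 8 were higher in set A and 1 in set B, at summed levels of 53.6 to 65.5 CPM and 27.2 to 34.6 CPM; perforin, Prf1, was at 7.001 to 12.1 and 1.24 to 1.73 CPM (-2.67 ± 0.14). Of 15 tested stellate cell markers, 5 were higher in set A and 2 in set B. Yet 9 had a positive difference and 6 a negative one (median 0.35). Reln and Col4a1, which hold most of the counts of that list (summed level 214 to 339 CPM in set A, 69.5 to 86.6 CPM in set B), differed by -2.72 ± 0.21 and -2.39 ± 0.12.

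Of 15 dendritic cell markers 6 were higher in set A, led by the receptor Kit (-3.72 ± 0.17), and 4 in set B, led by the adhesion gene Cadm1 (3.599 ± 0.08). The summed level was 234 to 280.4 CPM in set A and 379.9 to 405 CPM in set B. Of 17 neutrophil markers in the files 7 were tested, 3 were higher in set A, Mmp9 and Lcn2 among them, and 2 in set B. Mmp8 and the receptor Csf3r (4.01 ± 0.11) were those of set B, and Prtn3 and Retnlg were at 0 in all libraries. The summed level was 440 to 576 CPM in set A, most of it from Mmp9, and 129 to 146 CPM in set B. Hepatocyte markers gave no call in either direction among 6 tested, and the only tested one above 10 CPM was transferrin, Tf (0.31 ± 0.04). Of 11 mesothelial and portal fibroblast markers, 5 were higher in set B and 1 in set A, at summed levels of 38.3 to 42.1 CPM and 75.4 to 89.4 CPM, most of it from Pi16 (1.16 ± 0.05). The part of any of these cell types in the differences between the sets was not tested.

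The set difference was next taken within each treatment, from 2 libraries of each set. Its sign is fixed by the calls, which require that the sets do not overlap. Its size is fixed in part, because a call also requires a fitted log2 difference of at least 1 over all 12 libraries. The counts that follow therefore describe the called genes and are no separate support for the calls. Of the 1164 genes higher in set B, 979 reached 1 log2 unit in each of vehicle, hAEC and hAMSC, and of the 1180 genes higher in set A, 985 did. For Apoe the log2 differences were 5.55 with vehicle, 5.61 with hAEC and 5.59 with hAMSC, and for Cxcl3 -5.97, -5.91 and -6.05.

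The test of the set-by-treatment interaction asked whether the set difference varied with the treatment. With edgeR's quasi-likelihood F-test, 16 of 13539 genes (0.118%) passed at an adjusted p under 0.05, and 991 had an unadjusted p under 0.05. None of the 8 marker genes passed (adjusted p 0.774 for Adgre1, 0.776 for Ccl9, 0.894 for Lyz2 and 0.975 to 0.985 for the other 5). Of the 16, 13 were higher in set A and 0 in set B. In the single contrasts, 27 genes (0.199%) had a set difference with hAMSC that differed from that with vehicle, 23 of them in the positive direction. None passed for hAEC against vehicle (731 at an unadjusted p under 0.05) or for hAEC against hAMSC (704). The count depended on single libraries: without Veh replicate 19 no gene passed (821 at an unadjusted p under 0.05), without hAEC replicate 3, hAEC replicate 4, hAMSC replicate 15, Veh replicate 18 or Veh replicate 20 it was 9, 3, 3, 4 and 2, and without hAMSC replicate 8 or 16 it was 71 and 47. It was 1 in a fit that is not robust, 6 with limma voom and 112 with DESeq2.

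Ehd3, a membrane-trafficking gene, had the smallest p. In set A it was at 20.5 and 24.98 CPM with hAEC, 23.9 and 27.6 CPM with hAMSC and 29.7 and 32.99 CPM with vehicle. In set B it was at 8.64 and 9.23, 19.9 and 17.97, and 8.401 and 8.697 CPM. The hAMSC libraries of set B thus stood above the other 4 of that set. The set difference, set B minus set A, was -1.87 log2 units with vehicle and -0.44 with hAMSC. The sets thus lay closer together with hAMSC, by a contrast of 1.43 ± 0.16 log2 units (SE, edgeR adjusted p = 0.00299 for this contrast and 0.0113 for the interaction). Ehd3 passed the interaction test in 11 of the 12 fits that left out 1 library. Enpp3, an ectonucleotidase, followed the same order in set B, at 33.9 and 30.5 CPM with hAMSC against 15.6 to 17.5 CPM in the other 4 libraries (0.89 ± 0.12, edgeR adjusted p = 0.0129). Enpep, Kcnj8 and Rnd1 did too, with contrasts of 1.27 ± 0.18, 2.63 ± 0.38 and 1.83 ± 0.23 (edgeR adjusted p = 0.0156, 0.0173 and 0.0173). For Enpp3, Kcnj8 and Rnd1 the sets again lay closer together with hAMSC (-1.37, -1.65 and -1.60) than with vehicle (-2.27, -4.25 and -3.41). The set difference of Enpep changed sign, from -0.38 with vehicle to 0.89 with hAMSC.

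Ccr7, the chemokine receptor of cells that migrate to lymph nodes, differed from these. In set B it was at 30.9 and 29.8 CPM with hAEC and 35.4 and 33.3 CPM with hAMSC, above 20.5 and 17.9 CPM with vehicle. In set A it was at 13.9, 16.1, 15.3 and 20.6 CPM in the co-cultures, below 22.2 and 21.9 CPM with vehicle. The set difference with hAMSC exceeded that with vehicle by 1.14 ± 0.17 log2 units (edgeR adjusted p = 0.0173), and with hAEC by 1.22 ± 0.17, which did not pass for that contrast (edgeR adjusted p = 0.0928). The other genes with the smallest p for hAEC against vehicle, Sema4f, Lad1 and Mrc2, did not pass either (edgeR adjusted p = 0.159, 0.285 and 0.314).

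Endothelial markers moved alongside the hAMSC result. Their summed level in set B was 592 and 522 CPM in hAMSC 15 and 16 and 414 to 439 CPM in the other 4 libraries; in set A it was 706 to 863 CPM. Esam, one of the 16 genes, was at 11.8 and 9.09 CPM in these libraries and 5.26 to 5.77 CPM in the others of set B. Lyve1 was at 10.8 and 7.99 CPM against 2.54 to 3.16 CPM, and did not pass (edgeR adjusted p = 0.134 for the interaction). The part of endothelial RNA in the interaction was not tested.

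**Figure D5:**
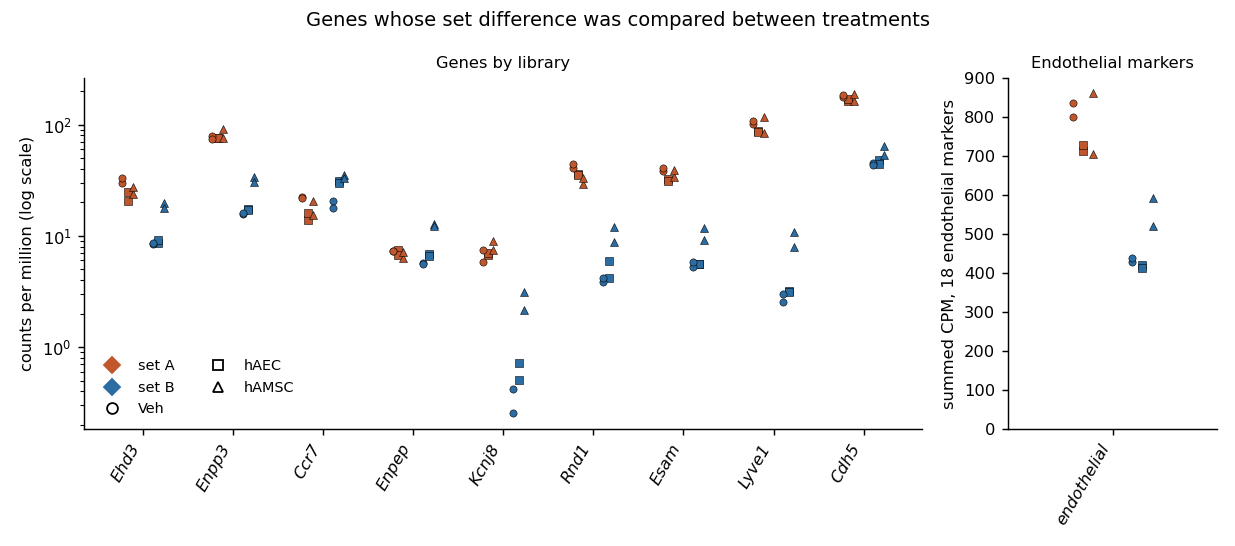
Left, CPM (log scale) of 9 genes in each of the 12 libraries, with set by colour and treatment by symbol; right, the summed CPM of 18 endothelial markers on a linear axis from 0. The triangles of set B, hAMSC 15 and 16, lie above the other blue points for Ehd3, Enpp3, Enpep, Kcnj8, Rnd1, Esam and Lyve1, and in the summed endothelial level (592 and 522 CPM).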

How the data were processed

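Polyadenylated RNA of 12 rat libraries was measured. The authors deposited 1 table per library of expected counts per gene, as estimated by RSEM; these are not scaled between libraries. FastQC, Trim Galore, STAR, RSEM and limma and the builds rn6 and Rnor_6.0 are named per the submitters' processing notes. Their versions, the annotation and the strand setting were not given in the sources used here. Whole values made up 90.1% of the deposited expected counts (difference from a whole number under 1e-9).

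Expected counts were rounded, filtered by filterByExpr (13539 of 32623 genes stayed; 12070 had 0 in all libraries), scaled by TMM and fitted with glmQLFit, robust, in edgeR 4.0.16 (R 4.3.3), with treatment as a block. CPM values use the TMM factors. A ± value is an approximate standard error (SE) of the fitted log2 difference, set B minus set A, or of the interaction contrast it follows. It was taken as the size of that difference divided by the square root of its quasi-likelihood F statistic. For the set difference it is a description and not a test, because the sets were chosen by these values. The set-by-treatment interaction was tested with edgeR's quasi-likelihood F-test (2 degrees of freedom, Benjamini-Hochberg over all tested genes). In the 6 pairs of libraries of the same treatment and set, counts differed by more than sampling noise; other pairs were not compared. The code was tested on simulated data.

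The members of the sets and all gene lists were chosen with earlier results of these data known. Genes were named by rule: the 8 markers of the sets; per direction the 20 largest log2 differences (mean of at least 10 CPM, sets not overlapping, established symbol) and the 10 largest CPM differences; per list the 4 largest differences at a mean of 5 CPM or more, and the member with the highest mean; genes at 0 in 1 set; 2 genes inside and outside the threshold; and the leading interaction genes. Acta2, Clec4f and Col1a1 are defining cell markers and Tnf was added later; a few genes chosen this way are left out here. Alternatives were other scalings, filters and thresholds, DESeq2 1.42.0, limma 3.58.1 (voom), no treatment block, single treatments, and each library left out. Promoters came from the RefSeq table of GRCr8, matched by symbol; no genome was used here.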

Additional observations from a re-analysis of the deposited data

Results flagged for a closer look

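The set difference varied with treatment for 16 genes in the edgeR quasi-likelihood test of the interaction: Ehd3 (adjusted p = 0.0113), Enpp3 (0.0204), Ccr7, Enpep and Kcnj8 (each 0.0262), Mest, Prickle2, Mt2A, Rnd1, Socs3 and Adgrl4 (each 0.0333), Clec14a and Esam (each 0.0355), Il1r1 (0.0377), Rhoj (0.0381) and Nat8l (0.0438). Ehd3 passed in 11 of the 12 fits that each left out 1 library, Kcnj8 and Enpp3 in 8, Ccr7 in 7, Enpep and Socs3 in 6, Mest in 5 and the other 9 genes in 2 to 4. Without Veh replicate 19, none of the 16 passed.

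Some single libraries lay far from the other 5 of their set by Dixon's test of the gap. In set A, Veh 18 had 6976 CPM of Mmp12 (7569 to 7749 CPM in the others), 381 CPM of Nfkbia (344 to 353 CPM) and a summed level of 11005 CPM of matrix protease and inhibitor genes (11541 to 11856 CPM). Also in set A, hAMSC 8 had 131 CPM of Ch25h (104 to 113 CPM) and 31.6 CPM of Id1 (27.3 to 28.7 CPM), hAMSC 7 had 129 CPM of Clec4e (89.8 to 104 CPM) and hAEC 3 had 1.05 CPM of Cpq (0.5676 to 0.744 CPM). In set B, hAEC 11 had 13.7 CPM of Ccl7 (10.3 to 11.6 CPM), hAMSC 15 had 62.1 CPM of Mki67 (43.9 to 50.1 CPM) and 1.98% of counts from mitochondrial genes (2.38% to 2.61%), and hAMSC 16 had a summed level of 34.6 CPM of T and NK cell markers (27.2 to 29.8 CPM). In Veh 19 of set B the 10 genes with the most counts held 11.8% (11.2% to 11.3% in the others) and the TMM factor was 0.973 (0.986 to 0.992). These are 13 of 212 groups of 6 values looked at, and chance alone gives about 1 in 20.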

How the results depend on the processing

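The counts of genes called higher in set B and in set A (1164 and 1180) stayed within 1.5 times under other scalings, no filter, other tools, no treatment block, overlap allowed or 1 treatment alone. They were 667 and 654 with a mean of at least 5 CPM, where fewer genes are tested, 2026 and 1988 at a threshold of log2(1.5), and 445 and 464 at 2 log2 units. Leaving out each library in turn gave 1182 to 1213 and 1183 to 1253. With 1 treatment alone, 2 libraries of each set are compared, fewer genes are tested and lack of overlap is easier to meet. Of the 2344 calls in both directions, 1756 recurred with hAEC alone, 1700 with hAMSC alone and 1707 with vehicle alone. The 16 interaction calls became 643 with no filter, 112 with DESeq2, 6 with limma voom and 1 without robust fitting, and 0 to 71 when each library was left out; the cause was not tested. None of the 169 named genes that were called changed sign under the alternatives computed for them. In fits on fewer libraries this was fixed in advance, because a call requires that the sets do not overlap. The labels number samples without repeats. No paired analysis was possible because no number is shared between groups. Limits: the sets have no label, levels below 1 CPM rest on the fewest counts, and the interaction rests on 2 libraries per set and treatment.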

Other observations

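Further genes with the largest differences between the sets belonged to none of the lists. On the side of set B, Cadm3, an adhesion molecule, was at 0.201 to 0.711 CPM in set A and 24.9 to 42.8 CPM in set B (log2 difference 6.204 ± 0.14), and the bicarbonate transporter Slc4a5 at 0.688 to 1.36 and 33.6 to 46.5 CPM (5.47 ± 0.10). Cpq, a lysosomal carboxypeptidase, was at 0.5676 to 1.05 and 26.1 to 31.1 CPM (5.37 ± 0.11), and Ms4a6e at 0 to 4.21 and 37.4 to 95.9 CPM. On the side of set A, Cnn3, an actin-binding calponin, was at 254 to 273 CPM in set A and 9.91 to 13.9 CPM in set B (-4.42 ± 0.05). Qprt, an enzyme of NAD synthesis, was at 48.5 to 63.2 and 2.92 to 3.98 CPM (-4.02 ± 0.08), and the protease Adamts7 at 61.6 to 89.5 and 2.65 to 7.21 CPM (-4.13 ± 0.23).

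Several genes with many counts shifted by less than the threshold, and their differences in CPM were among the 10 largest on a side. Ftl1, the ferritin light chain, was at 5782 to 6759.6 CPM in set A and 8315 to 9699 CPM in set B (0.53 ± 0.04), whereas its partner Fth1 was at 14469 to 16712 and 11601 to 13091 CPM (-0.39 ± 0.03), so that the chains of ferritin differed in opposite directions. The cathepsins Ctsb and Ctsd were not called (0.39 ± 0.03 and 0.53 ± 0.03), while Ctsa was (1.31 ± 0.03). Lgals3, galectin-3, was at 5706 to 6285 CPM in set A and 3215 to 3657 CPM in set B (-0.82 ± 0.04), and the oxidase subunit Cybb at 3683 to 4854 and 2949 to 3117 CPM (-0.46 ± 0.05).

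Marker lists with few tested members gave these values. Of 6 epithelial markers 3 were higher in set B and 0 in set A (summed level 17.9 to 22.8 CPM in set A, 23.8 to 33.9 CPM in set B), and keratin Krt8 was at 1.03 to 3.95 and 6.23 to 11.6 CPM. Of 4 B and plasma cell markers, 1 was higher in set A, the proteoglycan Sdc1 (312 to 346 CPM in set A, 41.8 to 53.6 CPM in set B), and Cr2 was at 0 in all libraries. Both tested mast cell and basophil markers, Kit among them, were higher in set A, and Prss34 was at 0 in all libraries. Of 5 erythroid and platelet markers, 2 were higher in set B, Pf4 among them, and 1 in set A, the integrin Itga2b (23.99 to 27.6 and 4.17 to 5.45 CPM).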
